A study of Oryza sativa Japonica Group with 6 samples.

Results

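Ascorbate peroxidases are the haem enzymes with which plants reduce hydrogen peroxide to water, and each reaction consumes ascorbate. The ascorbate is then regenerated by monodehydroascorbate reductases and, through glutathione, by dehydroascorbate and glutathione reductases. Rice has cytosolic forms (APX1 and APX2), peroxisomal forms (APX3 and APX4) and forms of the mitochondria and plastids (APX5 to APX8). GSTU6 is a glutathione transferase of the tau class, a plant family of enzymes that join glutathione to reactive or foreign molecules.

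Members were all probe sets of the deposited table whose gene has the symbol or synonym APX with a number from 1 to 8, or GSTU6. The table of gene names listed 9 such genes, and 8 of them were paired with a probe set, out of 17905 genes with a probe set of their own. They had 12 probe sets in all, among 57381 on the array. APX3 was paired with none and was not analysed here. APX2 had 4 probe sets, GSTU6 had 2 and each of the other genes had 1. A probe set is a group of short probes for a transcript and gives 1 signal per array.

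RNA of mature anthers at anthesis was compared between the rice mutant dao and the wild type, both from a japonica variety of Oryza sativa grown in the field. Each group had 3 arrays, numbered 1 to 3 and called biological replicates in their titles. DAO, the gene for which the mutant is named, encodes a dioxygenase that oxidises the auxin indole-3-acetic acid. No source used here states the lesion. A free-text label calls the samples seedlings, those of the mutant Epi-df seedlings, whereas the other labels, titles included, give anthers.

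The median signal of an array was between 8.82 and 9.33 on the linear scale of the deposited intensities. DAO itself had signals of 1551, 1168 and 1391 on the arrays labelled dao, against 480, 883 and 686 on the wild-type arrays, so it was higher in the mutant and does not check the labels. The directions that follow are for the arrays as labelled. The 3 pollen markers (EXPB9, EXPB10 and ADF9) were bright on every array, and their summed signal was 19545 to 21363 on the dao arrays and 22679 to 24670 on the wild-type arrays. None of the 3 passed the test used below. A lower share of cells of a type and less RNA per cell cannot be told apart in such bulk samples.

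APX2, a cytosolic ascorbate peroxidase, was higher on every dao array than on every wild-type array by 3 of its 4 probe sets. Of all probe sets tested below, 17.9% were higher in dao without overlap. The 3 APX2 probe sets disagreed on the size of the difference, and the brighter 2 ran together over the arrays (Pearson r = 0.999, log2 signal). The dimmest of these 3, whose name has no suffix, rose, and the brighter pair, with the suffixes a and x, did not pass. The fourth APX2 probe set has no such suffix either, but it was too dim to be tested and its groups overlapped. Below, the APX2 probe set without a suffix always means the tested one. In the naming of this array the suffix x marks a probe set with probes that may also bind other transcripts, and the suffix a one that may bind several transcripts of a gene. GSTU6 also rose, by the brighter of its 2 probe sets. Of the other ascorbate peroxidases, peroxisomal APX4 was 1.47-fold higher, under the fold limit of 2, and APX1, APX5, APX6, APX7 and APX8 had intervals that included no difference.

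A probe set was taken as changed when its adjusted p from limma, fitted to all 34355 probe sets that passed a filter on dim signal, was at most 0.05 and the difference was at least 2-fold. Of the 12 member probe sets 10 passed the filter. Of these 10, 2 were higher by that rule, against 2.03% of all tested probe sets, and 0 were lower, against 1.34%. On adjusted p alone 3 were higher (6.53% of all tested) and 0 were lower (3.35% of all tested). The count on adjusted p alone was 1 without dao array 1 or wild-type array 3, 0 without dao array 3 and 5 without dao array 2. The count over all tested probe sets, by the rule with the fold limit, moved as well. It was 632 without dao array 1, 278 without wild-type array 3, 298 without dao array 3 and 1679 without dao array 2, against 1157 with all arrays. The median log2 difference was 0.30 over the 10 and -0.01 over all tested probe sets. It was 0.10 over the 6 probe sets of ascorbate peroxidases other than APX2. The 2 probe sets left out, the fourth of APX2 and the dimmer of GSTU6, had signals of 2.97 to 4.89 on the 6 arrays, and their groups overlapped.

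**Figure D1:**
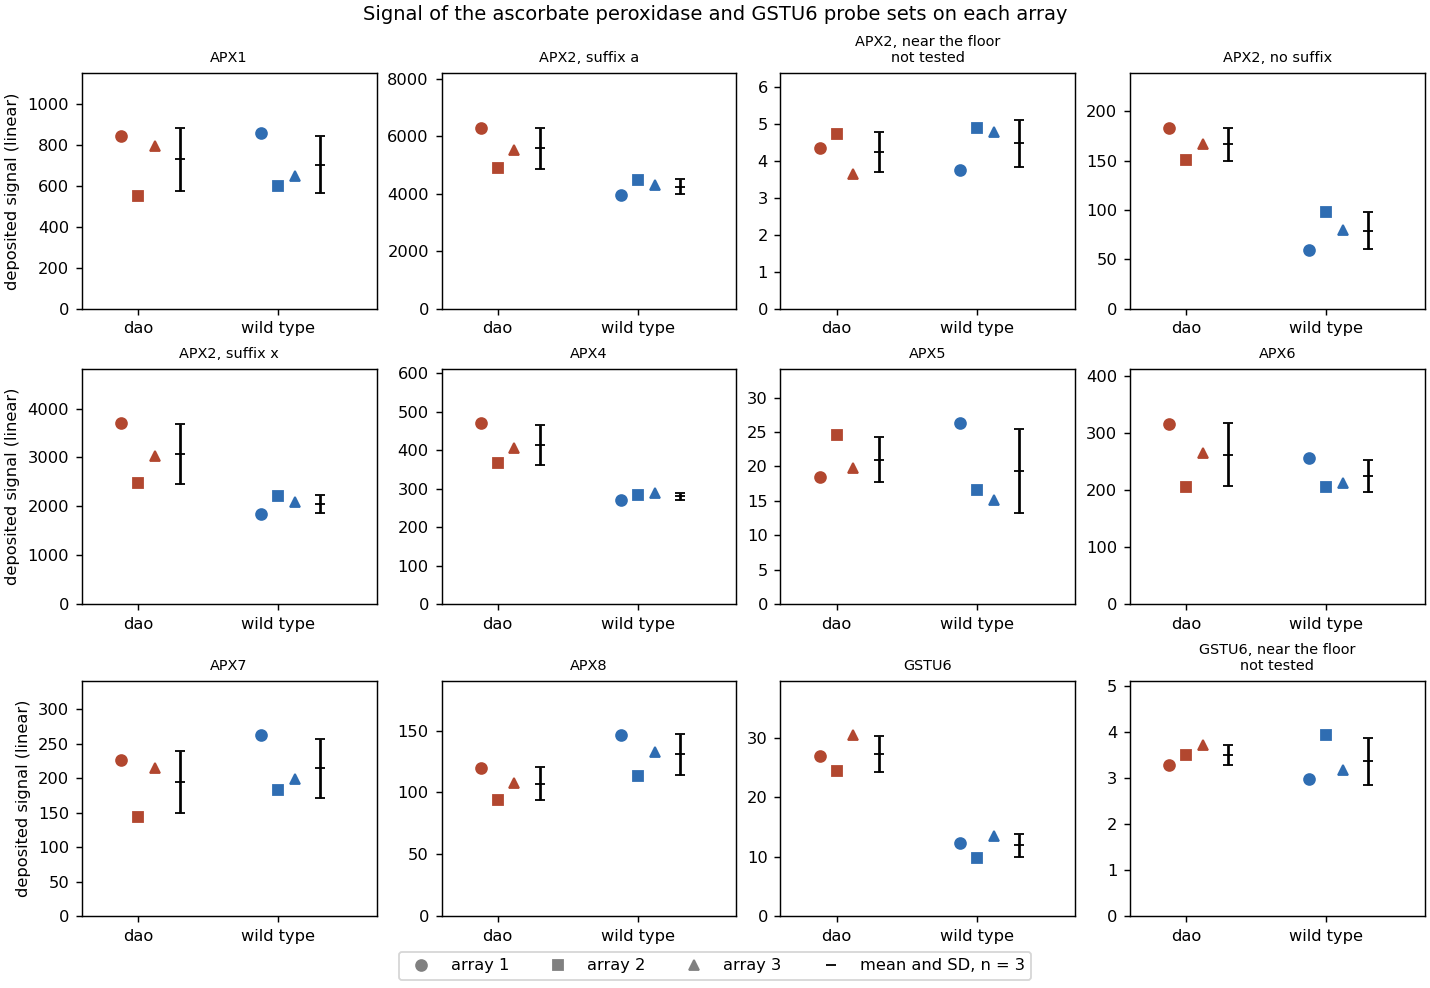
Deposited signal (linear scale) of each member probe set on the 3 dao arrays (left in each panel) and the 3 wild-type arrays (right), with the mean and SD at the side. The groups are separate in 3 of the APX2 panels, in APX4 and in the brighter GSTU6 panel, and overlap in the others.

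The APX2 probe set without a suffix, the one that rose, had signals of 184, 150 and 167 on the dao arrays, against 59.9, 97.9 and 79.7 on the wild-type arrays. All 3 dao arrays were above all 3 wild-type arrays, and the wild-type arrays were the more scattered for their level. The difference was 1.10 on the log2 scale (SE 0.19, n = 3 each; 95% interval 0.66 to 1.54; limma adjusted p = 0.0148), or 2.14-fold. The call was not kept with every single array left out. It was lost without dao array 1 (log2 1.03, limma adjusted p = 0.0599) or 3 (1.10, adjusted p = 0.0822) and without wild-type array 1 (0.91, under the fold limit) or 3 (1.12, adjusted p = 0.0827). Except without wild-type array 1, the size of the difference stayed past the fold limit in these fits and the adjusted p rose. Fewer probe sets were then called over the whole array too, as given above.

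The brightest APX2 probe set, with the suffix a, had signals of 6310, 4899 and 5542 on the dao arrays and 3967, 4466 and 4311 on the wild-type arrays. The groups did not overlap. Its means were 5584 ± 706 in dao and 4248 ± 255 in wild type (SD, n = 3 each), a difference of 0.39 on the log2 scale (SE 0.10; interval 0.15 to 0.63) or 1.31-fold, and it missed the threshold (limma adjusted p = 0.0534). Its limma adjusted p was 0.0499 with median scaling, 0.0160 without dao array 2 and 0.137 without dao array 1, always under the fold limit. The APX2 probe set with the suffix x had signals of 3699, 2476 and 3035 on the dao arrays and 1836, 2208 and 2096 on the wild-type arrays. These groups were separate too, and the difference was 0.57 on the log2 scale (SE 0.15; interval 0.23 to 0.91; limma adjusted p = 0.0503).

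Because the probe sets of APX2 gave different sizes, their ratios were compared array by array, a test chosen after the values were seen. Relative to the probe set with the suffix a, the log2 signal of the one without a suffix was -5.10, -5.03 and -5.05 on the dao arrays and -6.05, -5.51 and -5.76 on the wild-type arrays. The dao arrays were thus close together and above all wild-type arrays in this ratio, and the mean shift was 0.71 (exact permutation test, 2-sided, p = 0.1, the smallest p that 3 against 3 arrays allow; 0.15 adjusted over 9 such comparisons). The mean shift against the probe set with the suffix x was 0.53, also at p = 0.1 in the exact test. No source used here places the probes along the transcript. With the log2 signals of all 4 APX2 probe sets averaged, APX2 was higher by 0.50 on the log2 scale (limma adjusted p = 0.0499), under the fold limit. That mean includes the fourth probe set, which the filter left out and whose log2 difference was -0.07.

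GSTU6, by the brighter of its probe sets, had signals of 26.9, 24.3 and 30.4 on the dao arrays, against 12.3, 9.78 and 13.6 on the wild-type arrays. The lowest dao array was well above the highest wild-type array. The means were 27.2 ± 3.06 in dao and 11.9 ± 1.92 in wild type (SD, n = 3 each), and the rise was 1.20 on the log2 scale (SE 0.17; interval 0.80 to 1.60; limma adjusted p = 0.00866), or 2.30-fold. The signal is dim, and calls of presence above background were not used here, so the fold is uncertain. With 32 added to each signal before log2 the difference was 0.43 (limma adjusted p = 0.00850), under the fold limit. As every GSTU6 signal was under 32, no 2-fold difference was possible with that offset. The call was also lost without dao array 3 (log2 1.12, limma adjusted p = 0.0605), and with the mean over both GSTU6 probe sets (0.63, adjusted p = 0.0168). That mean includes the dimmer probe set, which the filter left out and whose log2 difference was 0.06.

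In both groups array 3 tended to lie between the other 2. Among the 10 tested member probe sets it was the middle array in 9 in dao and in 7 in wild type. Over all tested probe sets the share was 55.2% in dao and 52.5% in wild type. Without both arrays numbered 3, limma called 0 of the 10, with 4 at an unadjusted p under 0.05, and it called 0 of all tested probe sets, with 3493 at an unadjusted p under 0.05. The log2 differences were then 1.12 for the APX2 probe set without a suffix and 1.22 for GSTU6. P-values are too small where array 3 is not independent of the others, and whether it is was not tested.

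**Figure D2:**
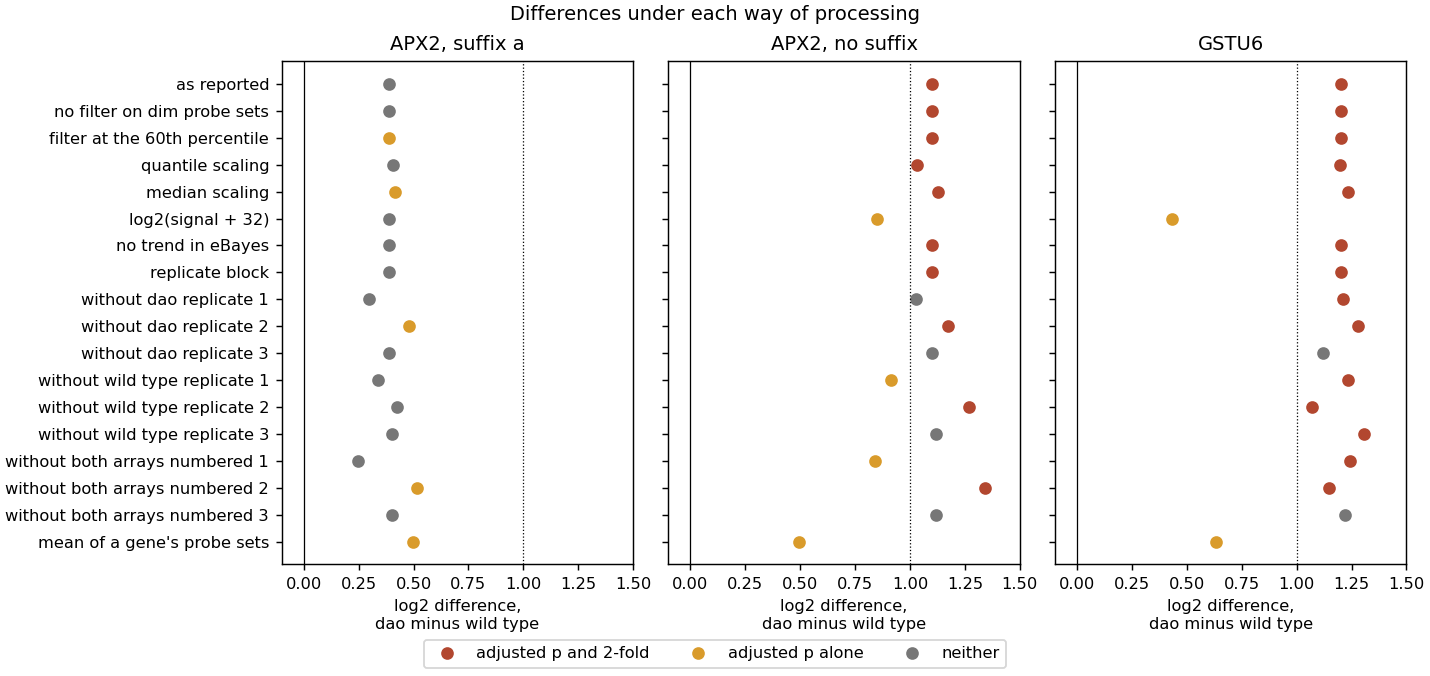
Log2 difference (dao minus wild type) of 2 APX2 probe sets and of GSTU6 as reported and under each of 17 other ways of processing, with colours for the test result and a dotted line at the 2-fold limit. Every point is above 0. The APX2 probe set without a suffix and GSTU6 change colour or side of the dotted line with single arrays left out and with the offset before log2. The APX2 probe set with the suffix a stays under the dotted line but changes colour with some settings.

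APX4, the peroxisomal form on the array, had signals of 470, 368 and 405 on the dao arrays, against 272, 283 and 289 on the wild-type arrays. The groups were separate and the wild-type arrays lay close together. The means were 414 ± 52.0 in dao and 281 ± 9.07 in wild type (SD, n = 3 each), a difference of 0.55 on the log2 scale (SE 0.12; interval 0.28 to 0.83; limma adjusted p = 0.0285). The adjusted p was above 0.05 without dao array 1 (0.0871) or 3 (0.128) and without wild-type array 2 (0.0520) or 3 (0.122), by limma. At 1.47-fold APX4 was the one probe set, besides the ones of APX2 and GSTU6 that rose, that passed on adjusted p alone. Over the 6 arrays the log2 signal of APX4 ran with that of the APX2 probe set with the suffix a (Pearson r = 0.98, a description over 6 arrays of 2 groups).

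APX1, the other cytosolic form, had signals of 844, 553 and 794 on the dao arrays and 861, 600 and 648 on the wild-type arrays. The groups overlapped over nearly their whole range. The log2 difference was 0.05 (SE 0.19; interval -0.40 to 0.50; limma adjusted p = 0.903), so a difference of up to 1.41-fold upward or down to 0.758 of the wild-type level lies within its interval. The sign of this small difference changed with which array was left out.

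The organellar forms did not pass either. APX5 had signals of 18.5, 24.6 and 19.8 on the dao arrays and 26.3, 16.6 and 15.2 on the wild-type arrays, with a log2 difference of 0.15 (interval -0.39 to 0.69; limma adjusted p = 0.735). APX6, its neighbour in the gene order of the RefSeq table, had signals of 315, 205 and 266 on the dao arrays and 256, 206 and 213 on the wild-type arrays. Its log2 difference was 0.21 (interval -0.20 to 0.61; limma adjusted p = 0.510). For both genes the groups overlapped.

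APX7, of the chloroplast stroma, had signals of 227, 144 and 215 on the dao arrays and 263, 182 and 198 on the wild-type arrays, with a log2 difference of -0.15 (interval -0.64 to 0.34; limma adjusted p = 0.710). APX8, of the thylakoid membrane, had signals of 120, 93.8 and 108 on the dao arrays and 146, 114 and 132 on the wild-type arrays. Its log2 difference was -0.29 (interval -0.64 to 0.06; limma adjusted p = 0.277), the lowest of the tested members. The groups overlapped in both. Of the 10 tested member probe sets, 5 had every dao array above every wild-type array, against 17.9% of all tested probe sets. Of the 5, 3 were probe sets of 1 gene, APX2. Among the 6 of the other ascorbate peroxidases it was 1, that of APX4. Of the 10, 0 had every dao array below, against 13.5% of all tested.

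**Figure D3:**
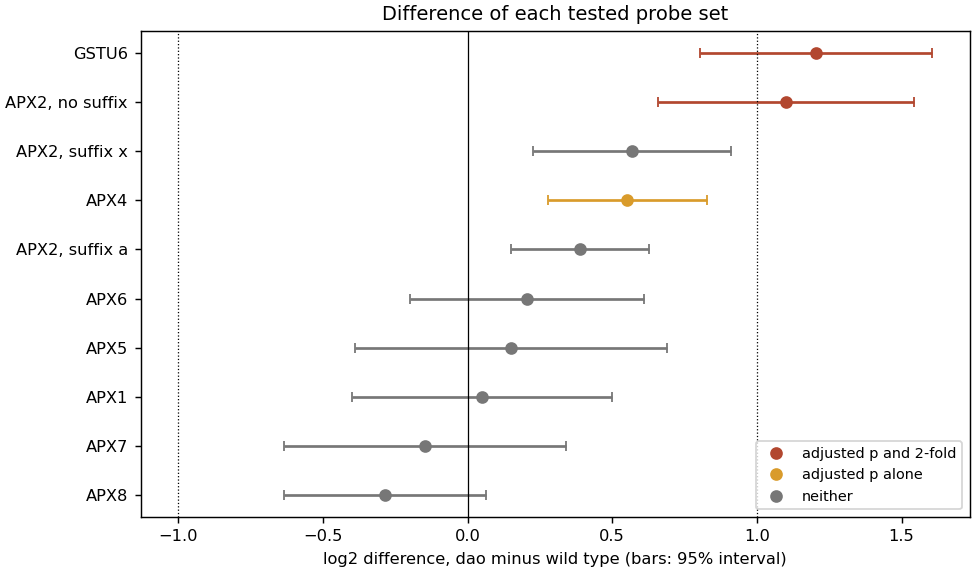
Log2 difference (dao minus wild type, points) of the 10 tested member probe sets with 95% intervals (bars), ordered by size, with dotted lines at the 2-fold limits. The intervals of GSTU6, the 3 tested APX2 probe sets and APX4 lie above 0, and those of APX1, APX5, APX6, APX7 and APX8 include 0.

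The difference in APX2 was then set against those of the other members through the within-array ratio of its probe set with the suffix a to theirs, with 9 comparisons in all and none able to go below p = 0.1 in the exact permutation test. The ratio of APX2 to APX7 was 0.54 higher on the log2 scale in dao, and that to APX8 was 0.68 higher, both with no overlap between groups (exact permutation p = 0.1, 0.15 adjusted). The ratio to APX1 was 0.34 higher (exact p = 0.2, 0.257 adjusted), with overlap. Against GSTU6 it was 0.82 lower (log2 -0.82) and against APX4 slightly lower (log2 -0.16), again without overlap (exact p = 0.1, 0.15 adjusted, for both). The comparisons with APX6 (log2 0.18) and APX5 (log2 0.24) had exact p-values of 0.5 and 0.6.

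The arrays within a group differed in an order that 4 of the ascorbate peroxidases shared with several other genes, photosynthesis genes among them. APX1, APX6, APX7 and APX8 all had their highest dao signal on array 1 and their lowest on array 2, and the same held in wild type. CAB2R, which encodes a chlorophyll-binding protein, had by its brighter probe set the same order, with 1818, 653 and 1327 on the dao arrays and 1011, 720 and 808 on the wild-type arrays. The pollen marker EXPB10 had it too (6687, 5205 and 6580 in dao, 8471, 6457 and 6966 in wild type), but EXPB9 and ADF9 did not. The peroxiredoxin genes PRXIIE-1 and bas1 also had it. A dimmer probe set of the photosynthesis gene rbcS was instead highest on array 3 (68.4 in dao, 64.7 in wild type). The share of all tested probe sets with this order was not counted. Over the 4 photosynthesis genes with a probe set, the summed signal was 1055 to 4159 on the dao arrays and 1298 to 2711 on the wild-type arrays. None of the 9 tested photosynthesis probe sets passed, and their part in the values of APX1, APX6, APX7 and APX8 was not tested. The 3 tested APX2 probe sets also had that order in dao, highest on array 1 and lowest on array 2. In wild type they had the opposite order, lowest on array 1 and highest on array 2. APX5 had that opposite order in dao, and APX4 followed the order of the 4 in dao but was lowest on array 1 in wild type.

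**Figure D4:**
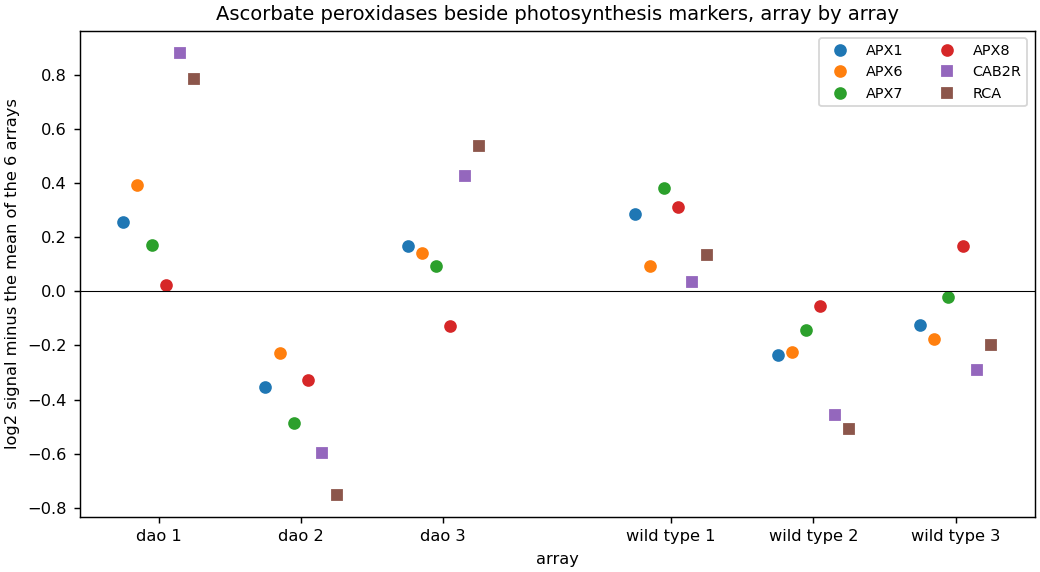
Log2 signal minus the mean of the 6 arrays for APX1, APX6, APX7 and APX8 (circles) and for the photosynthesis genes CAB2R and RCA (squares), for each dao array (left) and wild-type array (right). In each group all 6 genes are highest on array 1 and lowest on array 2, and the photosynthesis genes span the wider range in dao.

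The 3 tapetum markers on the array (TDR, PTC1 and C6) had a summed signal of 277 to 728 on the dao arrays and 199 to 264 on the wild-type arrays, without overlap. Of the 3, C6, a lipid transfer protein gene, was the one without overlap (log2 1.63, limma adjusted p = 0.0524). The groups overlapped for TDR (log2 0.36, adjusted p = 0.260) and for PTC1, which had signals of 7.15 to 8.93 on the 6 arrays (log2 -0.09, adjusted p = 0.715), by limma, and none of the 3 passed. Of the 3 genes listed as carpel markers, MADS13 rose (log2 2.02, limma adjusted p = 0.00212), while DL and MADS58 did not pass. MADS13 had 29.4, 20.4 and 26.1 on the dao arrays. Its wild-type signals of 5.49, 6.58 and 6.47 were under the median signal of those arrays, so the size of its rise is uncertain. The summed signal was 757 to 781 in dao and 512 to 762 in wild type. Most of that sum was MADS58 (means 733 in dao and 621 in wild type), so it says little about MADS13 or DL. The part of such cells in the APX2 and GSTU6 values was not tested.

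Among the other genes of ascorbate and glutathione metabolism that were found by name, 23 were paired with 37 probe sets, of which 33 were tested. No dehydroascorbate reductase or glutathione peroxidase was among them, so these enzymes were not examined. By the fold and adjusted p rule 1 was higher (3.03%, against 2.03% of all tested probe sets) and 0 were lower (against 1.34%), which is near the share over the whole array. On adjusted p alone 6 were higher (18.2%, against 6.53% of all tested probe sets) and 0 were lower. Of the 6, 3 were probe sets of 1 catalase gene, CatA. The count of all that passed on adjusted p alone was 0 without dao array 3 or wild-type array 3. It was 10 without dao array 2, without wild-type array 1 or with the replicate number as a block. By the rule with the fold limit, the count over all tested probe sets was 298 without dao array 3 and 278 without wild-type array 3. That count was 1679 without dao array 2, 1169 without wild-type array 1 and 1136 with the block, against 1157 as reported. The median log2 difference was 0.10, against -0.01 over all tested probe sets, and the groups did not overlap in 13, 12 of them higher and 1 lower in dao. Over all tested probe sets 17.9% were higher without overlap and 13.5% lower.

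The probe set that rose was that of MDAR2, a monodehydroascorbate reductase, which returns oxidised ascorbate to the reduced form that the peroxidases use. Its signals were 97.4, 70.9 and 85.7 on the dao arrays and 46.3, 42.6 and 36.9 on the wild-type arrays. All dao arrays were above all wild-type arrays. The difference of 1.01 on the log2 scale (SE 0.17, limma adjusted p = 0.0127) was just past the fold limit, and MDAR2 was under it with quantile scaling (log2 0.95) or without dao array 1 (0.90). Without dao array 3 (log2 0.99) or wild-type array 3 (0.92) its limma adjusted p was 0.0800 and 0.0808. MDAR5, named after its value was seen, had a log2 difference of 0.35 (limma adjusted p = 0.200).

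Glutathione reductase, in the cycle the enzyme that keeps glutathione reduced, had signals of 801, 655 and 716 on the dao arrays and 468, 460 and 437 on the wild-type arrays for its tested probe set. The groups were far apart for their spread, yet at 1.59-fold the gene stayed under the fold limit (log2 0.67, SE 0.11, limma adjusted p = 0.0112). SodCc1, a cytosolic superoxide dismutase that makes hydrogen peroxide from superoxide, had means of 1053 ± 67.4 in dao and 660 ± 39.4 in wild type (SD, n = 3 each; log2 0.67, limma adjusted p = 0.00819). Of the 4 other tested probe sets for superoxide dismutases none passed, and sodA, the mitochondrial manganese form, had a log2 difference of 0.18 by its brighter probe set (limma adjusted p = 0.229).

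Catalases remove hydrogen peroxide in peroxisomes without ascorbate. All 3 probe sets of CatA passed on adjusted p alone, with log2 differences of 0.80 (limma adjusted p = 0.0102), 0.61 (0.0275) and 0.53 (0.0387). By the first of these CatA had 305, 331 and 296 on the dao arrays and 164, 202 and 170 on the wild-type arrays, and those groups did not overlap. The 4 tested probe sets of CatB did not pass and differed in sign (log2 -0.21 to 0.43).

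**Figure D5:**
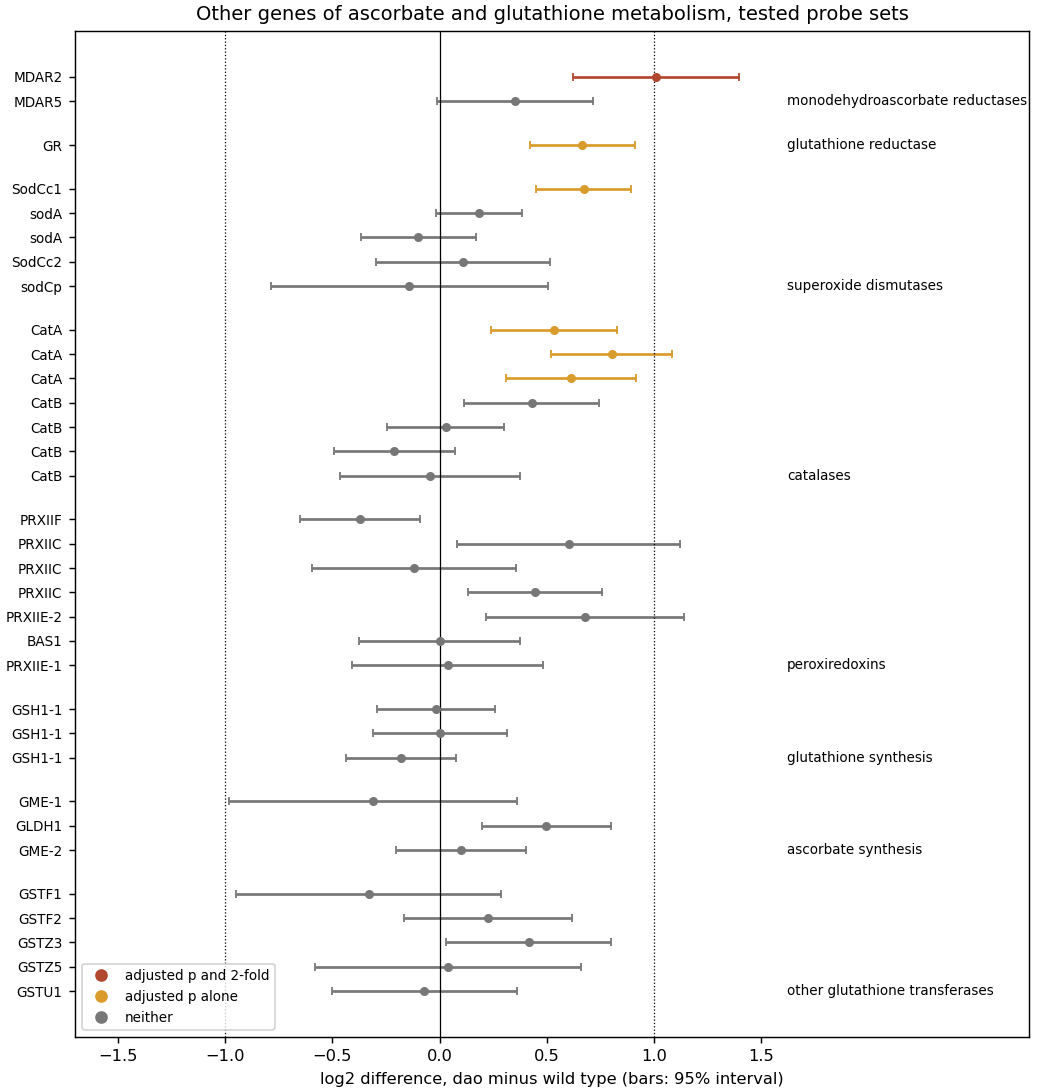
Log2 difference (dao minus wild type, points) with 95% intervals (bars) of the 33 tested probe sets of other ascorbate and glutathione genes, grouped by function, with dotted lines at the 2-fold limits. MDAR2 is at the upper limit, and glutathione reductase, SodCc1 and the 3 CatA probe sets are above 0 on adjusted p alone, while those of glutathione synthesis lie near 0.

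The remaining groups held no probe set that passed, either with or without the fold limit. Among peroxiredoxins, PRXIIE-2 and PRXIIC, by its brightest probe set, had log2 differences of 0.68 (limma adjusted p = 0.0719) and 0.45 (0.0799). PRXIIF, named after its value was seen, had every dao array below every wild-type array (log2 -0.37, limma adjusted p = 0.0955), while PRXIIE-1 (log2 0.04) and bas1 (0.00) were near 0. In ascorbate synthesis, GLDH1, of the last step, had a log2 difference of 0.50 (limma adjusted p = 0.0506) and the epimerase gene GME-1 one of -0.31 (0.553). The 3 probe sets of GSH1-1, of glutathione synthesis, ranged from log2 -0.18 to 0.00. Of the 5 other glutathione transferases found by name, GSTZ3 and GSTF2 had the smallest limma adjusted p, at log2 0.42 (0.161) and 0.23 (0.445). GSTU1, of the same class as GSTU6, had a log2 difference of -0.07 (0.851).

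Genes whose pattern over the 6 arrays was most like that of APX2 and GSTU6 were sought among 2160 named genes by Pearson r of log2 signal, as a description. For the APX2 probe set with the suffix a they were PAL, a phenylalanine ammonia-lyase, ML3 and CYP714D1, a cytochrome P450 that inactivates gibberellins, each with r = 1.00. PAL had 737, 337 and 513 on the dao arrays and 203, 266 and 237 on the wild-type arrays. It thus shared with APX2 the order of the arrays in each group. For GSTU6 they were GL2-2, SAUR39, a small auxin-up RNA gene, and RR6, a response regulator of cytokinin signalling, each with r = 0.99. SAUR39 had 25.5, 25.0 and 26.5 on the dao arrays and 8.49, 6.59 and 8.69 on the wild-type arrays, and its groups did not overlap either. Likeness was common, since 350 of the named genes had r over 0.9 with APX2 and 221 with GSTU6.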

How the data were processed

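Total RNA from 6 samples was hybridised to 1-colour Affymetrix rice genome arrays. The authors deposited a linear intensity for each probe set on each array. The submitters' processing notes name MAS5. No source used here gives the background correction, genome build or probe positions, and no batch is labelled. Intensities were taken to log2. The 123 controls and probe sets under the 40th percentile of mean log2 signal were left out, and dao was compared with wild type in limma 3.58.1 (R 4.3.3; lmFit, eBayes with trend, group as the only term, 2-sided, Benjamini-Hochberg over 34355 probe sets). The fit was tested on simulated data. Genes were named through Entrez IDs in the RefSeq table of assembly ASM3414082v1. The members and lists were chosen with earlier results of these data known. Named were all members, pathway genes past the threshold or else the 2 probe sets per group with the smallest adjusted p, and the 3 genes per target with the highest r. Pathway spellings GR and BAS1 were added, and GSH-FDH and class III peroxidases were left out, from names alone; MDAR5, GSTU1, CatB, PRXIIF, PRXIIE-1 and bas1 were named with their values already seen. The number of arrays limits precision, and p-values measure the spread between these samples only. Alternatives were 2 other filters, 2 scalings, an offset of 32, no trend, a replicate block, gene means and arrays left out.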

Additional observations from a re-analysis of the deposited data

How the results depend on the processing

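The direction of all 3 tested APX2 probe sets, APX4, APX6, APX8 and GSTU6 was kept under all 17 alternatives. With log2(signal + 32), 402 probe sets were called over the array, against 1157 as reported, and 0 of the members and 0 of the pathway probe sets, by limma. At an unadjusted p under 0.05 there were 5 members and 13 pathway probe sets in that fit. GSTU6 stood at log2 0.43 with that offset, with which its signals could not reach 2-fold, and at 0.63 on the mean of its probe sets. That mean includes the probe set left out by the filter. Quantile scaling gave 0 pathway calls, with 13 at an unadjusted p under 0.05. With arrays left out, the count over the array ran from 0 to 2238, that of members from 0 to 2 and that of pathway probe sets from 0 to 1. The log2 difference then ran from 0.25 to 0.52 for the brightest APX2 probe set and from 1.07 to 1.31 for GSTU6. It changed sign for APX1 (-0.073 to 0.24), APX7 (-0.28 to 0.059) and APX5 (-0.060 to 0.48). The cause of these changes was not tested. Over the alternatives the adjusted p ran from 0.00884 to 0.518 for the brightest APX2 probe set and from 0.00756 to 0.298 for GSTU6. With the replicate number as a block, 1136 probe sets and the same number of members (2) were called, and APX2 was at log2 0.39 (limma adjusted p = 0.0751). Same-numbered arrays correlated at 0.25, 0.18 and 0.09 in their deviations. Differently numbered arrays correlated at -0.23 to -0.01, except wild-type array 3 with dao array 2 (0.13). The labels do not say whether the numbers pair the arrays, and the main fit did not pair them. The number of arrays limits all of these values.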
